A study of Homo sapiens with 5 samples.

Results

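Resistant clone 3 is a line picked from TOV21G, a cell line from a clear cell carcinoma of the ovary in which ARID1A is mutated, after growth in stepwise higher GSK126, an inhibitor of the histone methyltransferase EZH2. The concentration was raised from 5 to 10, 15 and 20 uM before clones were taken. Clone 3 was represented by 2 of the 5 RNA-seq libraries, 1 from untreated cells and 1 from cells given GSK126, and these were compared with the single library of untreated parental TOV21G cells. Clone 4, picked from the same selection and also profiled untreated and with GSK126, served to tell what was particular to clone 3 from what both clones shared. All cells carry the ARID1A mutation, each resistant line is 1 clone, and the labels do not state the dose or time of GSK126 for the treated libraries. Nothing says that the 2 libraries of a clone came from separate cultures of equal treatment, so p-values measure only the spread between an untreated and a treated library of a clone. Parental cells have no replicate.

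EZH2 is the catalytic subunit of the PRC2 complex, which places the repressive mark H3K27me3 on promoters, and the SWI/SNF complexes, of which ARID1A is a subunit, open chromatin at many of the same genes. Loss of either activity is known to alter interferon and chemokine genes, lineage genes and inhibitors of the cell cycle. Clear cell carcinoma of the ovary typically expresses PAX8, annexin A4, osteopontin and the simple keratins.

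Estimated counts summed to between 25479238 and 30764963 per library, and 15588 to 16432 genes had at least 10 counts. PAX8 (3083 to 4523 normalized counts), ANXA4 (5418 to 7588), SPP1, KRT8 and KRT18 were abundant in all libraries, whereas SOX17 (0 to 0.9), GPX3 (0 to 19.1) and NAPSA (2 to 49.4), which are also used as markers of this tumour type, were at or near the bottom of the range. EPCAM, an epithelial adhesion protein, was kept in clone 3 (394 and 492, against 401 in parental cells), while clone 4 held 0 and 1.1. Among markers of other ovarian carcinoma types, WT1 held 38.3 in parental cells, 169 and 168 in clone 3 and 0 and 2.1 in clone 4. MUC16 held 5 to 45.5 and ESR1 0 to 1 over the libraries. Of 13 markers of fibroblasts, endothelium and leukocytes, 11 were measured, and their normalized counts summed to 403 in parental cells, 168 and 165 in clone 3, and 102 and 166 in clone 4. The highest of them was COL1A2 with 247 in parental cells, and no other of these 13 markers except COL1A1 passed 49.4, so their level was low in every library.

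Of 17477 genes for which DESeq2 gave an adjusted p, 2465 (14.1%) were higher and 2436 (13.9%) lower in clone 3 than in parental cells, together 4901. A gene was then said to have moved in clone 3 when both clone 3 libraries differed from parental cells at least 2-fold in the same direction, among 11564 genes whose normalized counts (scaled for depth, here and below) averaged 100 or more over the 5 libraries. Of these, 1632 (14.1%) moved, 801 (6.93%) up and 831 (7.19%) down, and 1594 of them were also called by DESeq2. Over 8-fold, 158 genes moved up and 70 down. The filter averages 5 libraries, so genes near 0 in parental cells enter it only through the clones, which selects for rises. With total-count scaling 896 moved up and 742 down, so the balance of directions turned with the scaling, as it did with a correction for GC content (730 and 652). The rule used these ratios, so they carry no test of their own: 242 moved genes lay within 0.1 log2 units inside the threshold and 351 genes within 0.1 outside it.

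Most of what moved in clone 3 had moved in clone 4 as well. In 1007 of the 1632 genes (61.7%) both clone 4 libraries differed at least 2-fold in the same direction, 459 up (3.97% of the genes tested) and 548 down (4.74%). This balance also turned, to 544 up and 472 down with total-count scaling and 419 and 390 with the GC correction. Both clones were read against the same parental library, so a peculiarity of that library enters both. A set of 262 genes (16.1% of those moved) was particular to clone 3: neither clone 4 library had moved that far and the direct contrast of clone 3 with clone 4 was past the threshold, for 162 genes up (1.40%) and 100 down (0.865%). Without the untreated clone 3 library 136 were up and 60 down, and without the treated one 109 and 73. This contrast, which does not use the parental library, called 1457 genes (8.34%) higher and 851 (4.87%) lower in clone 3. Large changes were mostly rises: 31 of the 162 rose over 8-fold, against 1 of the 100. In 42 of the 262, clone 4 had moved at least 2-fold the other way, and 38 of those were up in clone 3.

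**Figure D1:**
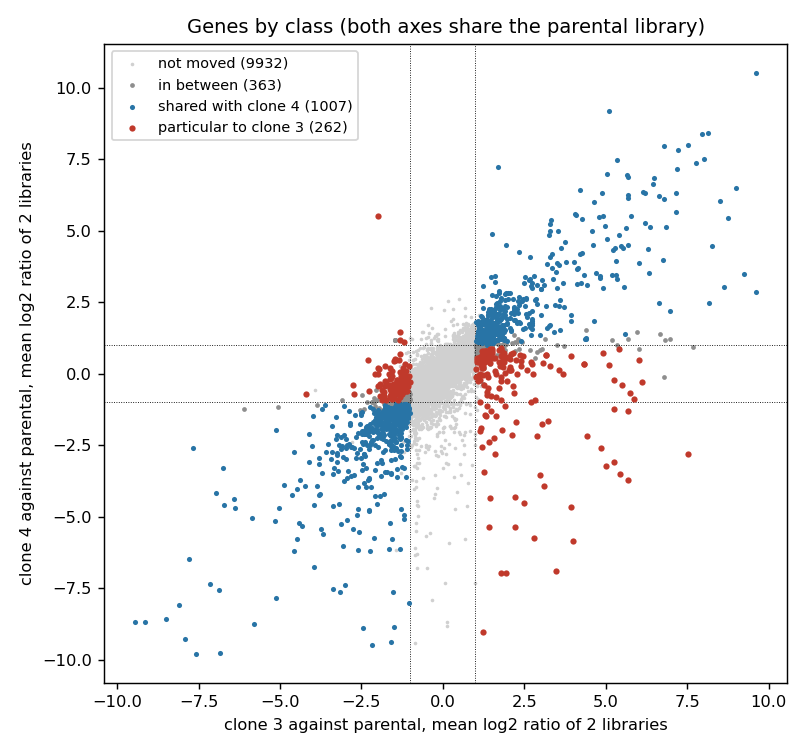
Each point is 1 of 11564 genes, with the mean log2 ratio to parental cells of the 2 clone 3 libraries on the horizontal axis and of the 2 clone 4 libraries on the vertical axis; dotted lines mark 2-fold. The 262 genes particular to clone 3 (red) lie outside the vertical lines (162 right, 100 left) at little or opposite change in clone 4, and the 1007 shared genes (blue) lie in the upper right and lower left; the parental library is part of both axes.

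Interferon-stimulated genes, which cells switch on in response to interferons, stood out among the changes of clone 3. Of 20 members tested, 9 moved up and 2 down, and 4 of the 9 were particular to clone 3. The median log2 ratio of the list was 0.72 in clone 3 and 0.03 in clone 4, where the medians of all genes were -0.06 and -0.09. Promoters of members that the data bear on are shown here because they hold a searched motif; they come from the RefSeq promoter table (GRCh38.p14), were chosen after the values were seen, and give the 120 bases before the start on the gene's strand, with the searched motif in capitals. IFITM3 has the interferon response core GAAANNGAAA at 2 places (minus strand, chr11:320861-320980). The others belong to the chemokine genes below and hold the kappaB core GGGNNNTTCC on either strand: CXCL1 (plus strand, chr4:73869273-73869392, 2 matches on opposite strands that overlap), CCL20 (plus strand, chr2:227813722-227813841) and IL32 (plus strand, chr16:3065283-3065402).
IFITM3: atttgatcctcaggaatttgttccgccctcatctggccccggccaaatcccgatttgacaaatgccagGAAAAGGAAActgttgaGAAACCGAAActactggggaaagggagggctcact
CXCL1: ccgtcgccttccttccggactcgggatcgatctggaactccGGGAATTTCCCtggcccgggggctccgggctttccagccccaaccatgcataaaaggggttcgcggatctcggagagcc
CCL20: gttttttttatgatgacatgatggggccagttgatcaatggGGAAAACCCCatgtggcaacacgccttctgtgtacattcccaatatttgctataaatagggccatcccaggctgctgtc
IL32: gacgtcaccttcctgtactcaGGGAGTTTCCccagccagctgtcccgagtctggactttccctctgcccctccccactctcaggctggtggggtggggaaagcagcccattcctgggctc
Searched on both strands of the 300 bases in the table, the interferon core was present in 11 of the 16 promoters found for tested members of the interferon list and in 2.61% of the 9061 promoters found for all genes tested. The kappaB core was present in 9 of 13 promoters of the chemokine list and in 7.67% of all. List members were counted whether or not they had moved, and HERC6 had no match to the interferon core. The interferon core was in 5.79% of promoters of genes particular and up and in 4.96% of those shared and up. It was in 4.05% of those particular and down, 1.36% of those shared and down and 2.50% of those not moved. The kappaB core was in 8.26%, 9.33%, 6.76%, 7.01% and 7.62% of the same classes, in that order. All of these are matches of letters, not measured sites.

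MX1, an antiviral GTPase, held 76.5 normalized counts in parental cells, 453 and 462 in clone 3 (untreated, then GSK126, the order kept below) and 65.1 and 106 in clone 4. Clone 4 thus spanned the parental value, and the log2 fold change of clone 3 was 2.58 against parental cells, with a standard error of 0.40 (given as ± below; DESeq2 adjusted p 4.8e-09), and 2.42 ± 0.32 (3.6e-12) against clone 4. HERC6, of the HERC family of ligases, held 125, then 506 and 542, then 155 and 206. IFITM3, a membrane protein that blocks entry of viruses, held 311, then 989 and 776, then 170 and 193. In all of these 3 genes both clone 3 libraries were above all others. In bulk RNA, fewer cells that express a gene and less RNA per cell cannot be told apart.

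The RNA sensors IFIH1 and OAS1 were higher in all libraries of both clones than in parental cells. IFIH1, the sensor MDA5, held 11.1 normalized counts in parental cells, 299 and 353 in clone 3 and 98.7 and 152 in clone 4, and OAS1 held 23.2, then 173 and 207, then 89.5 and 107. BST2, which tethers budding virus, held 701, then 3329 and 3200, then 2707 and 2466. The direct contrast of the clones was past the threshold for IFIH1 (log2 fold change 1.38 ± 0.34, DESeq2 adjusted p 9.7e-04), though not without the untreated clone 3 library (0.121), without the treated one (0.331) or without untreated clone 4 (0.0702), and it missed the threshold for OAS1 (0.086) and BST2 (0.122). The list did not move one way: ISG15, the ubiquitin-like modifier, fell to 206 and 216 from 529 (log2 fold change -1.32 ± 0.34, adjusted p 6.2e-04, but 0.0718 and 0.0591 without the untreated and the treated clone 3 library), and HERC5, the ISG15 ligase of human cells, fell to 107 and 149 from 471, both also lower in clone 4. By the DESeq2 contrast, 9 of the 20 members were higher in clone 3 than in clone 4 and 0 lower. Over all 17477 genes these shares were 8.34% and 4.87%.

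Genes of MHC class I presentation, many of them interferon-regulated, differed between the clones without having moved in clone 3. The median log2 ratio of the list was 0.38 in clone 3 and -0.59 in clone 4. For PSMB8 and TAP1 below, both clone 4 libraries lay under parental cells. No member of 12 tested moved, and 4 were called higher than in parental cells, while 10 of 12 were called higher in clone 3 than in clone 4. Over all 17477 genes, 14.1% were called higher than in parental cells and 8.34% higher than in clone 4. PSMB8, a catalytic subunit of the immunoproteasome, held 747 normalized counts in parental cells, 1101 and 1238 in clone 3 and 129 and 135 in clone 4, a log2 difference between the clones of 3.14 ± 0.21 (DESeq2 adjusted p 2.4e-46). TAP1, the peptide transporter, held 1808, then 2367 and 2526, then 884 and 863 (1.49 ± 0.16 between the clones, 1.9e-19). The calls of PSMB8 and PSMB9 against parental cells (0.0305 and 0.0299) were lost without either clone 3 library, at adjusted p 0.236 to 0.451 for PSMB8 and 0.249 to 0.382 for PSMB9, and with treatment as covariate (0.207 and 0.14); that of PSMB9 was also lost without untreated clone 4 (0.0526).

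Chemokines and cytokines gave several of the largest rises particular to clone 3. Of 16 members tested, 5 moved up and 1 down, 4 of the 5 particular to clone 3. DESeq2 called 8 higher and 4 lower than in parental cells, where 14.1% and 13.9% of all 17477 genes were. Between the clones, 14 of the 16 were called higher in clone 3 and 1 lower, against 8.34% and 4.87% of all genes. The list's median log2 ratio was 0.59 in clone 3 (0.95 after the GC correction) and -1.56 in clone 4. CCL20, which attracts CCR6-bearing lymphocytes and dendritic cells (ENSG00000115009, GRCh37 chr2:228670455-228682280, plus strand), held 68.5 normalized counts in parental cells, 4697 and 4885 in clone 3 and 78.3 and 39.1 in clone 4. Clone 4 thus spanned the parental value, and clone 3 was far above it, with a log2 fold change of 6.13 ± 0.28 (DESeq2 adjusted p 7.9e-100) against parental cells and 6.34 ± 0.23 (2.4e-167) against clone 4.

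CXCL8, a neutrophil attractant, held 182 normalized counts in parental cells, 6288 and 7187 in clone 3 and 524 and 336 in clone 4; 1 of the clone 4 libraries had also moved 2-fold, so it fell in between the classes. CCL2, a monocyte attractant, held 299, then 3418 and 3712, then 406 and 261. In IL32, a pro-inflammatory cytokine, the clones went opposite ways: 488 in parental cells, 4741 and 4531 in clone 3, 179 and 132 in clone 4 (4.90 ± 0.18 between the clones, DESeq2 adjusted p 3.7e-154). CXCL1, a relative of CXCL8, did the same, with 2372, then 5676 and 5187, then 456 and 348. The exception was CXCL5, which fell from 3039 to 393 and 336 in clone 3 and to 59 and 36 in clone 4. INHBA, which encodes a subunit of activin and was among the 6 largest particular rises, held 12.1 in parental cells, 543 and 605 in clone 3 and 5.1 and 15.9 in clone 4 (5.57 ± 0.56 against parental cells, 1.4e-21).

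SLFN11, an interferon-regulated protein of the Schlafen family that blocks stressed replication forks (ENSG00000172716, GRCh37 chr17:33677324-33700720, minus strand), had the largest particular rise. Parental cells had 3 counts, clone 3 had 631 and 667 normalized counts, and both clone 4 libraries had 0. The ratio of clone 3 to parental cells was 215, with a counting interval (95%) of 73.3 to 1042, and clone 3 was at least 199-fold higher than clone 4, taking a floor of 3 counts per clone 4 library. SLFN5, the other family member tested, held 602 in parental cells, 1112 and 1137 in clone 3 and 743 and 772 in clone 4 (log2 fold change 0.90 ± 0.22, DESeq2 adjusted p 3.9e-04; 0.0624 and 0.0812 without the untreated and the treated clone 3 library).

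**Figure D2:**
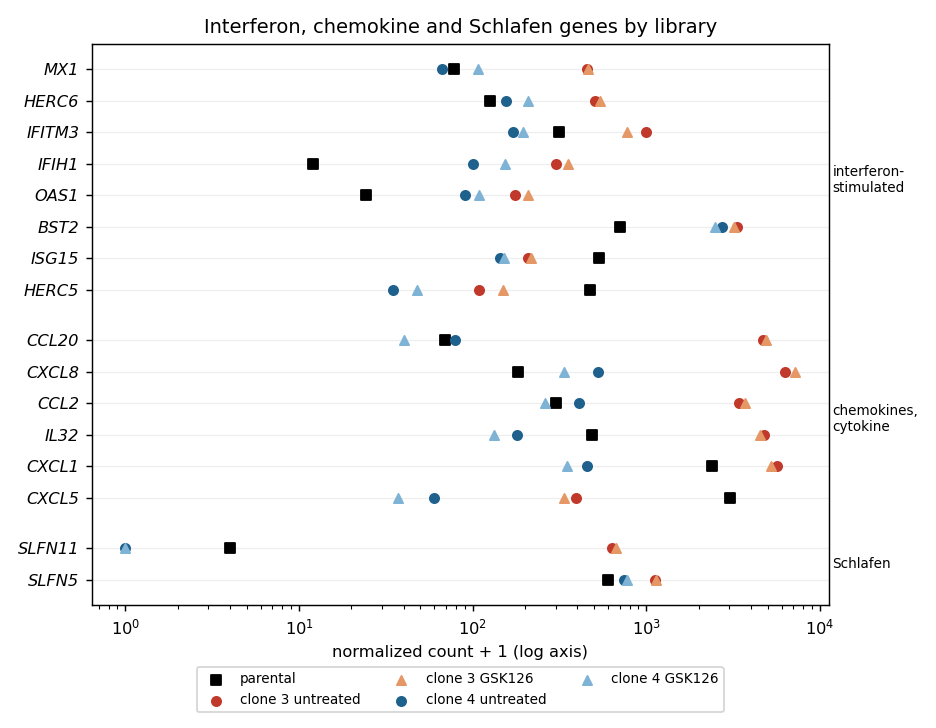
Normalized count + 1 on a log axis for 16 genes in each of the 5 libraries (black square, parental; red and orange, clone 3; blue, clone 4; circles untreated, triangles GSK126). The red and orange points are the highest of their row except for ISG15, HERC5 and CXCL5, where the parental square is the highest; BST2 in clone 4 (2707 and 2466) comes close to clone 3 (3329 and 3200).

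The remaining particular rises were of mixed function. CADPS2, which primes dense-core vesicles for release, held 7.1 normalized counts in parental cells, 400 and 495 in clone 3 and 3.1 and 4.2 in clone 4. UPK1B, a urothelial tetraspanin, held 25.2, then 1232 and 1502, then 15.3 and 15.9. NAP1L3, of the nucleosome assembly family, held 6, then 329 and 336, and clone 4 was at 0 in both libraries, so that clone 3 was at least 104-fold higher than clone 4. All 3 were near the bottom of the range in parental cells and in clone 4.

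The largest particular falls were smaller in size and centred on signalling enzymes and receptors. PDE3A, a cyclic nucleotide phosphodiesterase (GRCh37 chr12:20521471-20841517, plus strand), held 3921 normalized counts in parental cells, 206 and 218 in clone 3 and 2371 and 2381 in clone 4. Its log2 fold change was -4.21 ± 0.20 against parental cells (DESeq2 adjusted p 4.8e-98) and -3.48 ± 0.17 against clone 4 (5.9e-95), and it was the only particular fall over 8-fold. PDE1A, a second phosphodiesterase, held 1463, then 284 and 323, then 977 and 967. The bradykinin receptor BDKRB2 held 611, then 104 and 77.1, then 369 and 578. Clone 4 lay between parental cells and clone 3 in these genes.

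A regulator of DNA methylation and HOX genes were also among the particular falls. TET1, which oxidises 5-methylcytosine, held 1815 normalized counts in parental cells, 460 and 456 in clone 3 and 1572 and 2091 in clone 4 (log2 fold change -1.99 ± 0.23 against parental cells, DESeq2 adjusted p 4.5e-16). TANC2, a synaptic scaffold, held 547, then 131 and 125, then 371 and 782. In both of them the clone 4 libraries lay on either side of parental cells. Of 19 HOX genes tested, 3 moved, all down, a share of 15.8% that was near the 14.1% of all genes tested. By the contrast, 9 were lower in clone 3 than in clone 4 against 1 higher, where 4.87% and 8.34% of all 17477 genes were. HOXC6 held 327 in parental cells, 96.3 and 82 in clone 3 and 197 and 248 in clone 4, and HOXC9 held 533, then 182 and 173, then 322 and 331. Without either clone 3 library, the adjusted p of the clone difference was 0.0728 and 0.196 for HOXC6, and 0.275 and 0.381 for HOXC9; without treated clone 4 it was 0.11 and 0.126. For HOXC9 it was 0.0815 without untreated clone 4 and 0.0665 with treatment as covariate.

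The genes that went opposite ways in the clones included CCND2, cyclin D2, which activates CDK4 and CDK6. It held 3600 normalized counts in parental cells, 28654 and 27813 in clone 3 and 314 and 304 in clone 4, so clone 3 was above and clone 4 below parental cells, with a log2 difference between the clones of 6.51 ± 0.14. TC2N, a C2-domain protein, held 7.1, then 312 and 485, then 2 and 3.2. Its fall in clone 4 went from 7 counts to 2 and 3, so it rests on few counts. Among the 4 that fell in clone 3 and rose in clone 4, RNF217, a ubiquitin ligase, held 183, then 88 and 72.1, then 379 and 422 (-2.32 ± 0.30 between the clones, DESeq2 adjusted p 1.6e-12), and NDNF, a secreted neurotrophic factor, 105, then 34.3 and 51.4, then 245 and 348. The calls of these falls against parental cells were lost with the parental and clone 3 libraries alone (0.056 and 0.141), without the untreated (0.0719 and 0.339) or the treated clone 3 library (0.193 and 0.0836), and that of NDNF without untreated (0.0706) or treated clone 4 (0.103). With treatment as covariate it was 0.0677 for RNF217, and with total-count scaling or the GC correction 0.054 and 0.0513 for NDNF.

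Around the cyclin-CDK axis, 5 of 10 genes tested moved in clone 3, all up, with a median log2 ratio of 1.27 (0.32 in clone 4), which was 0.73 among genes with a mean of at least 50 or of at least 200. DESeq2 called 6 of the 10 higher and 3 lower than parental cells, against 14.1% and 13.9% of all 17477 genes. CDKN2A, which encodes the inhibitors p16 and p14ARF, held 60.4 normalized counts in parental cells, 1070 and 1440 in clone 3 and 125 and 162 in clone 4, a log2 fold change of 4.38 ± 0.34 (DESeq2 adjusted p 2.7e-36). It had also risen in clone 4, and the difference between the clones was 3.13 ± 0.24 (5.5e-35). Its neighbour CDKN2B, the inhibitor p15, held 35.3, then 178 and 161, then 172 and 167, without a detectable difference between the clones. CDK6 and cyclin D1 rose as well: CDK6 held 4567, then 16587 and 17318, then 10455 and 11118, and cyclin D1, CCND1, held 4316, then 13539 and 16711, then 5792 and 8709. The 3 called lower were inhibitors that did not reach 2-fold in both clone 3 libraries: CDKN1B, p27, held 2428, then 1289 and 1303, then 1898 and 1649 (-0.91 ± 0.19, DESeq2 adjusted p 3.7e-05). CDKN1A, p21, held 4308, then 3125 and 3273, then 3565 and 3871 (0.0433), and CDKN2C, p18, held 692, then 328 and 455, then 589 and 719 (0.0192). Both of these calls were lost with total-count scaling (0.12 and 0.051), with the GC correction (0.799 and 0.156) and without the untreated (0.438 and 0.381) or the treated clone 3 library (0.322 and 0.0544), and that of CDKN1A also with treatment as covariate (0.132) and with edgeR (0.0545).

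Genes of the BCL2 family that promote apoptosis fell or did not pass the test. Of 9 tested, 3 moved, all down, and 6 were not called. BBC3, the p53 target PUMA, held 630 normalized counts in parental cells, 97.2 and 86 in clone 3 and 120 and 95.2 in clone 4 (log2 fold change -2.78 ± 0.38, DESeq2 adjusted p 9.5e-12). BCL2L11, which encodes BIM, held 571, then 196 and 208, then 348 and 532, and was particular to clone 3, although the clone difference (-1.12 ± 0.27, 7.1e-04) was lost without the untreated (0.138) or the treated clone 3 library (0.0922) or treated clone 4 (0.159). BOK held 449, then 171 and 164, then 23.4 and 57.1; its call against parental cells was lost with a correction for GC content (0.123) and without the untreated (0.155) or the treated clone 3 library (0.187). BCL2, the anti-apoptotic founder of the family, held 362, then 579 and 688, then 564 and 665, and rose by 0.81 ± 0.27 (0.013), which was lost with treatment as covariate (0.145) and without the untreated (0.106) or the treated clone 3 library (0.326).

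Of the SWI/SNF ATPases, SMARCA2 moved up, and SMARCA4 was called lower without reaching 2-fold. SMARCA4 held 13474 normalized counts in parental cells, 8652 and 8934 in clone 3 and 8331 and 8610 in clone 4, a fall of 0.62 ± 0.15 on the log2 scale (DESeq2 adjusted p 5.4e-04) that was not past the threshold after a correction for GC content (0.103, with a corrected mean log2 ratio of -0.29) or without the untreated (0.12) or the treated clone 3 library (0.0816). SMARCA2 held 1238, then 2532 and 3136, then 3479 and 3473, a rise of 1.19 ± 0.19 (2.1e-08). The ARID1A transcript (390, then 353 and 298, then 421 and 708) and that of EZH2 (2746, then 2567 and 2607, then 3296 and 3223) did not pass the test against parental cells (0.661 and 0.794).

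Among drug efflux pumps, 2 of 6 tested moved up. ABCB1, the multidrug transporter P-glycoprotein, held 7.1 normalized counts in parental cells, 991 and 915 in clone 3 and 12.2 and 24.3 in clone 4. Its log2 fold change was 7.08 ± 0.62 (DESeq2 adjusted p 7.8e-28) against parental cells and 5.71 ± 0.34 (7.8e-59) against clone 4; it fell in between the classes because 1 clone 4 library was also 2-fold above parental cells. ABCC2 held 41.3, then 207 and 218, then 221 and 318, and did not differ detectably between the clones.

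**Figure D3:**
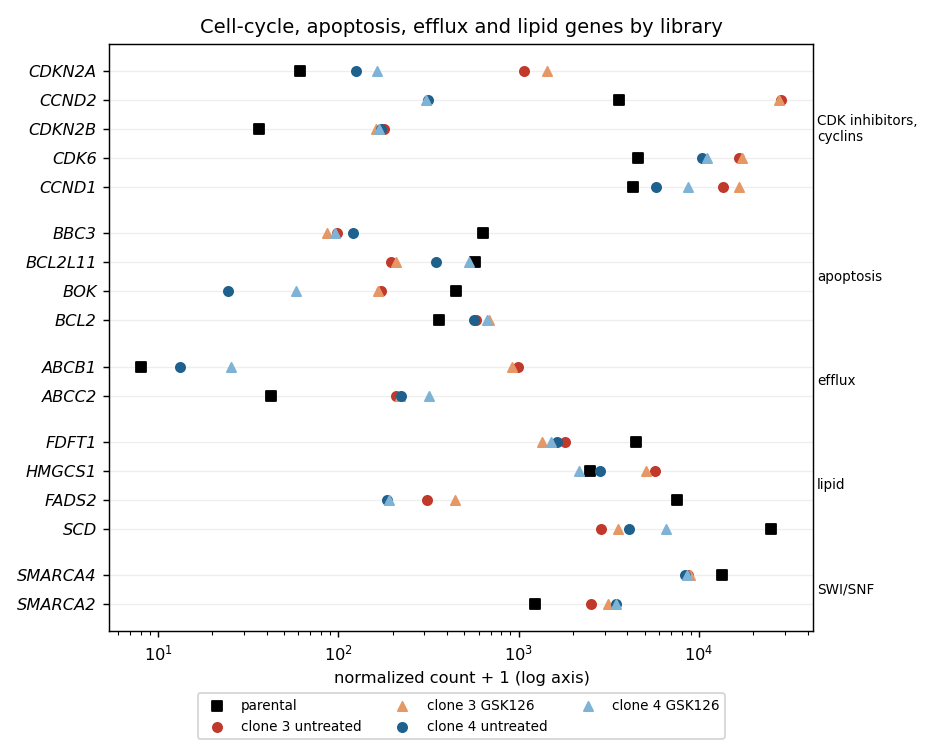
Normalized count + 1 on a log axis for 17 genes of the cell cycle, apoptosis, drug efflux, lipid synthesis and SWI/SNF in each of the 5 libraries, with symbols as for the interferon genes. Clone 3 (red, orange) is far above every other library for CDKN2A, CCND2 and ABCB1. Parental cells (black) are the highest for BBC3, BCL2L11, BOK, FDFT1, FADS2, SCD and SMARCA4.

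Lipid synthesis genes were more often called lower than higher in clone 3. Of 24 sterol synthesis genes, most of them targets of SREBP factors, DESeq2 called 14 lower and 2 higher, and 8 were not called. Over all 17477 genes, 13.9% were called lower and 14.1% higher. By the fold rule 8 moved down and 1 up, 7 of the 8 shared with clone 4, and the median log2 ratio was -0.80 in clone 3 and -0.88 in clone 4. FDFT1, squalene synthase, held 4501 normalized counts in parental cells, 1797 and 1345 in clone 3 and 1626 and 1501 in clone 4 (log2 fold change -1.52 ± 0.21, DESeq2 adjusted p 3.2e-11). The factor gene SREBF2 held 3138, then 1167 and 1035, then 1146 and 1267. The exception was HMGCS1, an early enzyme of the pathway, which rose and was particular to clone 3: 2474, then 5727 and 5089, then 2831 and 2150 (1.12 ± 0.17 between the clones, 6.7e-10).

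Of 11 fatty acid synthesis genes, 5 moved down and 0 up, and DESeq2 called 7 lower and 1 higher. Over all 17477 genes, 13.9% were called lower and 14.1% higher, here and for the lysosomal genes below. The median log2 ratio was -0.85 in both clones, and -0.39 in clone 3 after the GC correction. FADS2, a desaturase of polyunsaturated fatty acids, held 7513 normalized counts in parental cells, 311 and 445 in clone 3 and 185 and 191 in clone 4 (log2 fold change -4.31 ± 0.23, DESeq2 adjusted p 3.0e-76). SCD, the stearoyl-CoA desaturase, held 25035, then 2853 and 3555, then 4084 and 6553. SREBF1, their main regulator, held 1942, then 596 and 639, then 732 and 915. All libraries of both clones were below parental cells in these genes. Among 25 lysosomal genes, 12 were called lower and 1 higher, with a median of -0.51 (-0.29 after the GC correction), but 2 moved 2-fold (CTSB and CTSZ, both cathepsins and both down).

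Several glycolysis and hypoxia-response genes were lower in clone 3 than in clone 4. Of 28 tested, 7 moved down and 2 up, and the median log2 ratio was -0.47 in clone 3 (-0.21 after the GC correction) and 0.01 in clone 4. The contrast of the clones called 10 lower in clone 3 and 0 higher, against 4.87% and 8.34% of all 17477 genes. NDRG1, a stress-response gene induced by hypoxia, held 3649 normalized counts in parental cells, 800 and 826 in clone 3 and 1559 and 2142 in clone 4 (-1.19 ± 0.18 between the clones, DESeq2 adjusted p 4.2e-09). The brain-type aldolase ALDOC held 652, then 247 and 271, then 671 and 706. EGLN3, an oxygen sensor, held 447, then 69.4 and 72.1, then 44.8 and 96.3, and so had fallen in both clones. CA12, a carbonic anhydrase, and ADM, adrenomedullin, were the 2 that moved up. Of 14 NRF2 targets, 3 moved up and 0 down, all shared with clone 4, among them SLC7A11, the cystine carrier, at 407, then 899 and 989, then 1663 and 1595.

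Adhesion and lineage genes changed in many lists. Of 19 neuronal and axon guidance genes, 11 moved up and 1 down, with median log2 ratios of 1.20 in clone 3 and 1.23 in clone 4. SEMA5A, a semaphorin, and ROBO2, a receptor for SLIT proteins, were at 2 counts each in parental cells and held 854 and 1153, and 758 and 698 normalized counts in clone 3. In clone 4 they held 15.3 and 26.4, and 10.2 and 18, so clone 4 had moved the same way and was called lower than clone 3 (DESeq2 adjusted p 3.0e-57 and 1.3e-47). PLXND1, a plexin, was the member that fell, from 3079 to 176 and 206, with 416 and 678 in clone 4.

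Some adhesion genes rose strongly, while the list of integrins and laminins split: of 19 tested, 4 moved up and 4 down. DESeq2 called 5 higher and 8 lower, against 14.1% and 13.9% of all 17477 genes. CDH6, kidney cadherin (GRCh37 chr5:31193793-31329253, plus strand), had 2 counts in parental cells and held 980 and 1193 normalized counts in clone 3 and 80.4 and 148 in clone 4, a ratio of clone 3 to parental cells of 539 with a counting interval of 149 to 4443. CDH2, neural cadherin, held 17.1, then 1835 and 2065, then 1181 and 1242. ITGA2, the collagen receptor subunit, held 44.3, then 3478 and 3609, then 882 and 954 (log2 fold change 6.32 ± 0.29, DESeq2 adjusted p 2.2e-105). ITGB6 and ITGB8, which activate latent TGF-beta, were particular to clone 3: ITGB6 held 112, then 528 and 713, then 178 and 164, and ITGB8 5303, then 18676 and 19274, then 7927 and 7559.

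Epithelial and mesenchymal genes did not move as blocks. In the epithelial list 3 of 12 moved, all up, and in the mesenchymal list 3 of 13 moved up and 3 down. KRT19, a simple keratin, held 113 normalized counts in parental cells, 1632 and 1998 in clone 3 and 0 and 7.4 in clone 4. It moved in both clone 3 libraries without passing DESeq2 against parental cells (adjusted p 0.116), where edgeR called it (3.6e-06), and its clone difference (3.0e-06) was lost without the untreated (0.086) or the treated clone 3 library (0.106). Of 10 keratins tested 6 moved up and 0 down; KRT81 and KRT83 are near-identical copies whose counts may be split between them. MMP14, a membrane metalloprotease, fell from 2569 to 71.3 and 77.1, with 15.3 and 7.4 in clone 4, and vimentin, VIM, from 83091 to 33551 and 37558, with 37552 and 40141 in clone 4. S100A4 rose from 1718 to 3924 and 4815 with 1043 and 1166 in clone 4, and SPARC fell from 11334 to 4315 and 3944 with 17006 and 15547, both particular to clone 3.

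Matrix and identity genes followed no single direction either. Of 14 collagens, 3 moved up and 3 down; COL17A1, a hemidesmosome collagen, held 3263 normalized counts in parental cells, 212 and 261 in clone 3 and 136 and 221 in clone 4, and COL14A1 held 109, then 263 and 318, then 1 and 4.2. The call of COL14A1 against parental cells (DESeq2 adjusted p 0.011) was lost with treatment as covariate (0.198) and without the untreated (0.186) or the treated clone 3 library (0.379). In the list of clear cell and Mullerian identity, MECOM, a zinc finger transcription factor, had 3 counts in parental cells, 622 and 851 normalized counts in clone 3 and 4.1 and 9.5 in clone 4. SPP1, osteopontin, held 8009, then 29962 and 39424, then 24454 and 21277, and ARG2, a mitochondrial arginase, 1386, then 155 and 140, then 151 and 115. Metallothioneins, which bind zinc and copper, split: MT1E fell from 2161 to 3.7 and 3, MT1F from 294 to 117 and 126, and MT1X rose from 323 to 677 and 648. These genes are close copies, so their counts may be split between them. MT1F's call (0.034) was lost with total-count scaling (0.0585), with treatment as covariate (0.1), with the GC correction (0.092) and without either clone 3 library (0.328 and 0.285), and MT1X's without either clone 3 library (0.103 and 0.0816).

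**Figure D4:**
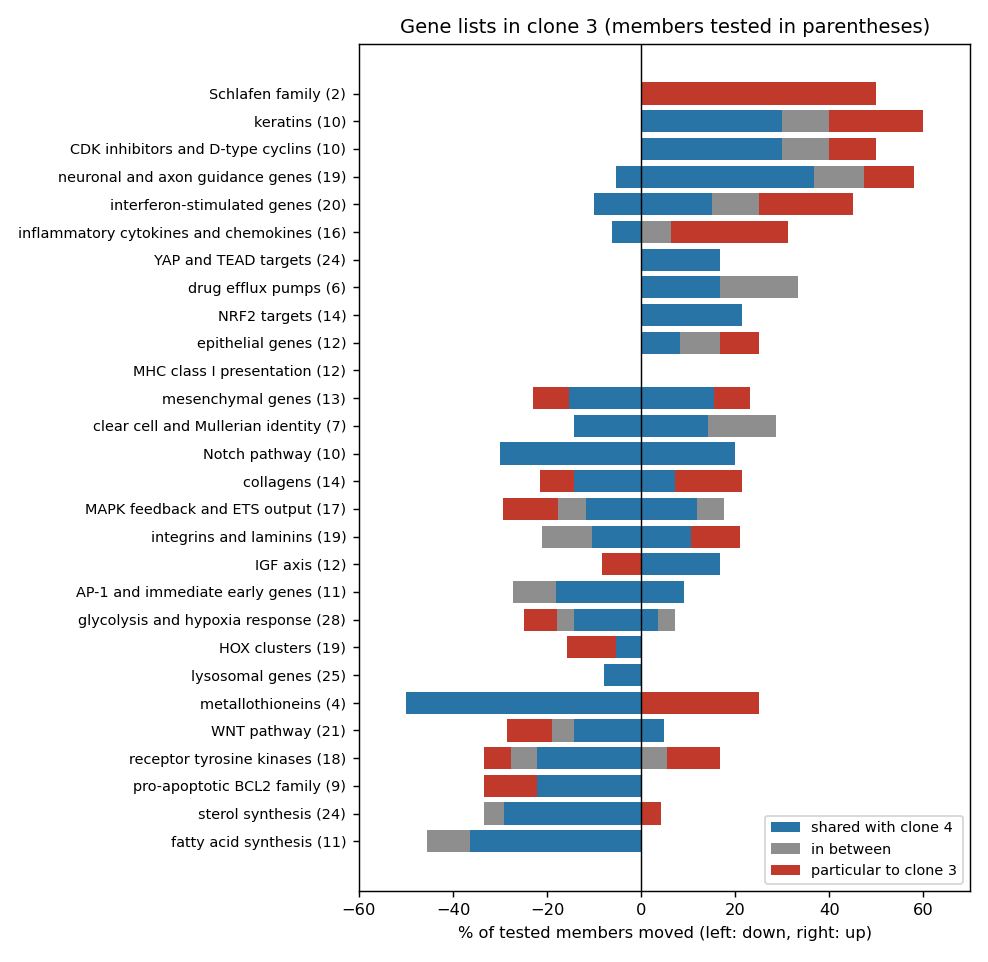
For each of 28 gene lists, the percentage of tested members (number in parentheses) that moved at least 2-fold in both clone 3 libraries, up to the right and down to the left, divided into shared with clone 4 (blue), in between (grey) and particular to clone 3 (red); lists are ordered by their median log2 ratio in clone 3. Red segments are widest on the right for the Schlafen family, inflammatory cytokines and chemokines, metallothioneins, interferon-stimulated genes and keratins, and fatty acid and sterol synthesis sit at the bottom with mostly blue bars to the left.

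Growth factor signalling lists were mixed. Of 18 receptor tyrosine kinases, 3 moved up and 6 down. MERTK, which binds GAS6 and takes part in the uptake of dying cells, held 2390 normalized counts in parental cells, 254 and 233 in clone 3 and 474 and 503 in clone 4. TYRO3, of the same family, held 1754, then 280 and 349, then 438 and 437. ERBB4 was particular to clone 3 at 2152, then 718 and 683, then 2357 and 2569 (-1.81 ± 0.16 between the clones, DESeq2 adjusted p 4.7e-28). MET, the receptor for hepatocyte growth factor, and EGFR were not among the 5 largest changes of the list and moved up, MET as particular and EGFR as in between; the clone difference of MET was lost without the untreated (0.0628) or the treated clone 3 library (0.34).

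The list of MAPK feedback and ETS genes split. Of 17 tested, 3 moved up and 5 down, and 8 were not called. SPRY2 held 3977 normalized counts in parental cells, 1140 and 1183 in clone 3 and 1709 and 1718 in clone 4, and SPRY1 held 4732, then 1769 and 1466, then 2783 and 2405. ETV4, an ETS factor induced by the pathway, held 2083, then 742 and 642, then 429 and 508, while EPHA4, an ephrin receptor, rose from 1598 to 5189 and 5254 with 3557 and 3856 in clone 4. SPRY1 was particular to clone 3, but its clone difference was lost without the treated clone 3 library (DESeq2 adjusted p 0.322). Among 11 immediate early genes, 3 moved down and 1 up, led by NR4A1, an orphan nuclear receptor, which fell from 508 to 40.7 and 20.8, with 50.9 and 67.7 in clone 4.

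In the YAP, WNT and Notch lists, most of the genes that moved in clone 3 were shared with clone 4. Of 24 YAP and TEAD targets, 4 moved up and 0 down, all 4 shared, a share of 16.7% that was near the 14.1% of all genes tested. The list's median log2 ratio was 0.58 (0.63 in clone 4), or 0.92 after the GC correction. ANKRD1, a muscle ankyrin repeat protein and a standard readout of YAP, held 17.1 normalized counts in parental cells, 1209 and 1709 in clone 3 and 687 and 572 in clone 4. Of 12 genes of the IGF axis, 2 moved up and 1 down, and the median log2 ratio was -0.41 in clone 3 and 0.47 in clone 4. IGFBP3, which binds insulin-like growth factors, rose less in clone 3 than in clone 4 (606, then 5494 and 6568, then 22816 and 28287; -2.08 ± 0.15 between the clones, DESeq2 adjusted p 9.9e-40), and IGFBP5 did likewise (766, then 2011 and 2409, then 20790 and 24854). Of 21 WNT pathway genes, 6 moved down, 2 of them particular to clone 3, and 1 moved up. The clone contrast called 5 of the 21 higher and 7 lower in clone 3, against 8.34% and 4.87% of all 17477 genes. WNT5A, a non-canonical ligand, held 3354, then 704 and 589, then 429 and 485, and RNF43, an inhibitor of WNT receptors, rose from 75.5 to 548 and 475, with 543 and 688 in clone 4. Of 10 Notch pathway genes, 2 moved up and 3 down. HES1, a target of Notch, held 3275, then 1249 and 1281, then 1004 and 999. HEY2 met the fold rule with 2 counts in parental cells and 6.5 and 8.9 in clone 3, where clone 4 held 363 and 401, and did not pass DESeq2 against parental cells (0.226).

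The 13 lists not described singly held 456 tested members, of which 20 moved up and 11 down, with medians between -0.43 and 0.27. They cover the other subunits of SWI/SNF, PRC2 and PRC1, anti-apoptotic BCL2 genes, stress responses, p53 targets, proliferation, TGF-beta, DNA repair, the respiratory chain, clustered protocadherins, zinc finger genes of chromosome 19 and ribosomal proteins.

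The largest rises shared with clone 4 began from parental cells with 0 to 2 counts. LIN7A, a polarity scaffold (GRCh37 chr12:81186299-81331713, minus strand), had 1 count in parental cells and held 1158 and 1203 normalized counts in clone 3 and 2330 and 2106 in clone 4, a ratio of clone 3 to parental cells of 1172 with a counting interval of 210 to 46280. KCNJ8, a potassium channel subunit, had 2 counts, then 868 and 971, then 174 and 154. PLA2G4A, the cytosolic phospholipase that releases arachidonic acid, had 0 counts in parental cells, 251 and 261 in clone 3 and 33.6 and 59.2 in clone 4, and was at least 83.0-fold higher in clone 3. GUCY1A2, a subunit of soluble guanylate cyclase, and PWWP3B, a chromatin reader-like protein of the X chromosome, met the shared rule although clone 4 held only 3.1 and 3.2, and 4.1 and 6.3, against 0 in parental cells. In clone 3 they held 336 and 461, and 273 and 332, at least 111-fold and 90.4-fold above parental cells, and the DESeq2 contrast called both higher in clone 3 than in clone 4 (adjusted p 1.8e-22 and 4.5e-21).

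The largest shared falls went from high levels to near the floor. PKDCC, a secreted tyrosine kinase, held 12243 normalized counts in parental cells, 26.8 and 10.9 in clone 3 and 16.3 and 51.8 in clone 4 (log2 fold change -9.34 ± 1.10, DESeq2 adjusted p 1.2e-15). MEOX1, a homeobox gene of the somites, held 3583, then 13 and 6.9, then 9.2 and 8.5. PRTFDC1, a relative of the purine salvage enzyme HPRT, held 2207, then 9.3 and 7.9, then 3.1 and 3.2, and the hormone convertase PCSK1 1530, then 3.7 and 6.9, then 4.1 and 6.3. IRAK3, an inhibitor of Toll-like receptor signalling, held 1261, then 4.6 and 5.9, then 13.2 and 13.8. The contrast of the clones passed the threshold in none of these 5 genes nor in MT1E (0.120 to 0.995).

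Long non-coding RNAs moved more often up than down, 64 against 11 of 363 tested, whereas 701 protein-coding genes moved up and 780 down of 10715. The filter averages 5 libraries, 4 of them from the clones, so genes near 0 in parental cells, such as FIRRE and RMST, enter it only through the clones. This selects for rises among genes of low level, and its share in the balance was not tested. FIRRE, a nuclear RNA of the X chromosome, had 0 counts in parental cells, 126 and 155 normalized counts in clone 3 and 154 and 194 in clone 4, at least 41.7-fold higher in clone 3. RMST held 4, then 125 and 126, then 195 and 212. MIR100HG, the host of several miRNAs, fell from 1420 to 8.3 and 4.9, with 215 and 258 in clone 4 (-5.14 ± 0.46 between the clones, DESeq2 adjusted p 9.1e-27). PRSS23-AS1, an antisense RNA, held 251, then 59.3 and 73.1, then 152 and 141; whether reads were counted by strand is not stated, so it cannot be told apart from overlapping sense transcripts. Small RNAs of the nucleus moved down in 9 of 16 snRNAs and 8 of 25 snoRNAs and up in 2 and 0.

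Within clone 3, the GSK126-treated library differed little from the untreated one. With 1 library each there is no test. Only 31 of 11564 genes (0.268%) differed at least 2-fold, 21 higher and 10 lower with GSK126, and the SD of the log2 ratio over genes was 0.24. Several of the largest ratios were in genes whose reads overlap with another gene or copy: GOLGA6L9, of a multi-copy golgin family (0 and 180 normalized counts), TMEFF1 (5.6 and 189), RAB43 (55.5 and 223), the readthrough transcript BLOC1S5-TXNDC5 (81.5 and 0) and AMIGO3 (243 and 10.9). AMIGO3 overlaps GMPPB, and the log2 ratio of their summed counts was 0.07. VGF, a secreted neuropeptide precursor, held 34.3 untreated and 143 with GSK126, and it was also higher with GSK126 in clone 4 (114 and 674). LIN28A, an inhibitor of let-7 maturation, held 29.6 and 5.9 against 1460 in parental cells, and SV2A, a synaptic vesicle protein, 8.3 and 3 against 474; both had also fallen in clone 4. Of the 31 genes, 12 were among those moved from parental cells.

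The ratios of clone 3 to parental cells were related to base composition. Over 11377 genes with a GC value, Spearman's rho between transcript GC content and the log2 ratio was -0.40 for the untreated and -0.43 for the treated library, a description over genes that share these libraries. The median log2 ratio ran from 0.461 and 0.572 below 40% GC to -0.431 and -0.398 at 60% and above, whereas the difference between clone 3 and clone 4 ran from 0.006 to 0.100 (rho 0.10). Genes shared with clone 4 had a median GC of 43.2% when up and 56.0% when down, and genes particular to clone 3 had 45.5% and 50.5%, against 48.3% in genes that did not move. After a lowess trend on GC content was taken out, 1382 genes moved in place of 1632, and of the 262 particular genes 199 remained among 281. Of 165 single genes examined and called against parental cells, 10 were not called with the correction, among them SMARCA4, BOK, MT1F, NDNF, CDKN1A and CDKN2C above. The corrected mean log2 ratio was -0.29 for SMARCA4 (-0.62 before), and it was 5.43 for CCL20, 2.76 for MX1, 3.56 for IL32, -4.54 for PDE3A and -4.04 for FADS2.

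**Figure D5:**
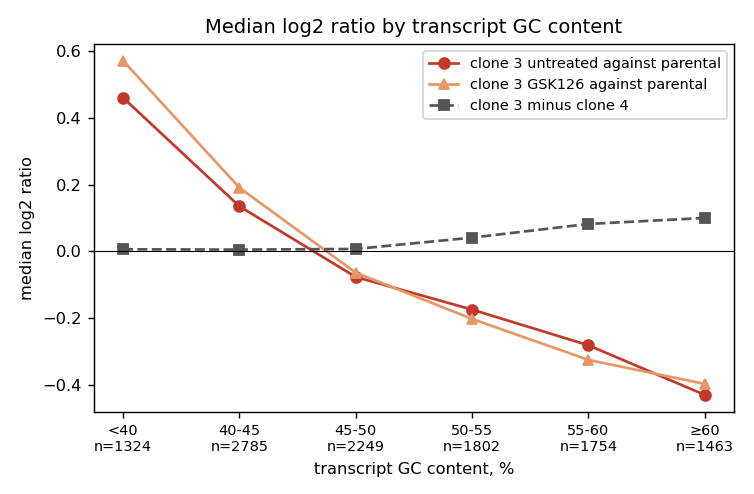
Median log2 ratio of the genes in 6 bins of transcript GC content (number of genes under each bin) for untreated clone 3 (red circles) and GSK126-treated clone 3 (orange triangles) against parental cells, and for the difference between clone 3 and clone 4 (grey squares). Both ratios to parental cells fall from above 0.4 to about -0.4 with rising GC content, and the difference between the clones stays between 0.005 and 0.100.

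Promoters of moved genes differed in CpG content. A CpG observed-to-expected ratio over 0.6 was found in 63.9% of promoters of genes shared and up, 60.3% of those particular and up, 79.9% and 75.7% of those shared and particular and down, and 87.5% of those of genes that did not move. By chromosome, the median log2 ratio in clone 3 lay between -0.41 and 0.21. Chromosome 10 was the lowest, at -0.41 in both clones and -0.49 in clone 3 after the GC trend was taken out, with 20.0% of its 449 genes moved. Chromosome 8 had the most particular rises, 14 of 401 genes, with a median of 0.16 in clone 3 and 0.04 in clone 4. A change in DNA copy number was not measured and cannot be told apart from a change in transcription here.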

How the data were processed

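RNA-seq of total RNA was analysed in 5 libraries. Per the labels and the methods, the authors aligned 75 bp paired-end reads of a stranded kit to hg19 with bowtie2 and estimated counts with RSEM on an Ensembl annotation whose release is not stated. The deposited values are these expected counts, not normalized and all whole numbers, for 30476 genes. RSEM divides reads between overlapping or duplicated genes by estimation. Samples were grouped by the cell line in the labels.

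Genes were tested, after a check on simulated counts, by the two-sided Wald test of DESeq2 1.42.0 (R 4.3.3), the tool of the study, on all 5 libraries in 3 groups, with size factors by median of ratios and a Benjamini-Hochberg adjusted p under 0.05 over all genes. With 1 parental library the spread came from the clones. Ratios per library used a pseudocount of 0.5. Symbols and GRCh37 positions came from GENCODE 44 (95.8% of identifiers matched; those unmatched held 3.06% of counts). Intervals (95%) and floors (3 counts) cover counting error only.

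Named were the 6 protein-coding genes of each direction with the largest change in both clone 3 libraries among shared and among particular genes that DESeq2 called, 3 of each direction opposite in clone 4, 2 long non-coding RNAs of each direction, 4 of each direction between treated and untreated clone 3, SMARCA4, SMARCA2, BCL2, ARID1A and EZH2, and up to 5 leading members of each list with 25% of members moved or a median 0.4 from that of all genes; values of some single genes are not given here, and further list members and the promoters were chosen after their values were seen. The members and the 41 gene lists were chosen with earlier results of these data known. Alternatives were edgeR 4.0.16 (quasi-likelihood), TMM and total-count scaling, other filters and pseudocount, treatment as covariate, a GC correction, a minimum fold in the test, and leaving out libraries. Total-count scaling moved the median log2 ratio of all genes from -0.06 to 0.01.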

Additional observations from a re-analysis of the deposited data

Results flagged for a closer look

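In 10 genes named above, both clone 3 libraries lay at least 2-fold on one side of parental cells and both clone 4 libraries at least 2-fold on the other, which drew attention to them. The difference between the clones was past the adjusted threshold of DESeq2 in each. The rule for particular genes already required this, so it adds no support, and it does not test clone 4 against parental cells. As log2 fold changes of clone 3 over clone 4, the difference was 11.73 for SLFN11, 10.77 for NAP1L3 and 7.26 for TC2N. In SLFN11 and NAP1L3 clone 4 had no counts, so these 2 values depend on the model and are not bounds. Parental cells had 3 counts of SLFN11, 6 of NAP1L3 and 7 of TC2N. The falls of these genes in clone 4 thus rest on few counts. The same contrast gave 8.94 for KRT19, 6.81 for COL14A1, 6.51 for CCND2, 4.90 for IL32 and 3.76 for CXCL1. It was -2.79 for NDNF and -2.32 for RNF217, which were lower in clone 3. The cause was not tested.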

How the results depend on the processing

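Of the counts, those of moved (1275 to 2030), shared (770 to 1246) and particular genes (182 to 327) stayed within 1.5 times their value under all alternatives run. However, the particular falls alone went from 100 to 60 without the untreated clone 3 library. The genes DESeq2 called against parental cells numbered 697 with a minimum log2 fold change of 1 in the test, 3273 with treatment as covariate, 5894 with edgeR (4709 of them called by both tools) and 1983 to 4992 without 1 library (1983 without the treated and 2282 without the untreated clone 3 library). The clone contrast called 804 to 2233 genes without 1 library, lowest without the treated (804) or the untreated clone 3 library (827), which leave clone 3 with 1 library that is assumed to vary like clone 4. No called fold change turned its sign; of 293 gene results, 138 changed their side of the threshold under at least 1 alternative, and of 3302 values 2977 kept it, 295 lost it and 30 gained it. Medians of 5 lists changed sign in some setting: mesenchymal genes (-0.661 with a mean of at least 200), clear cell identity (0.431 with a mean of at least 50), Notch (0.266), metallothioneins (0.142, both with a mean of at least 200) and, with the GC correction, collagens (0.029). Setting counts of 3 or fewer to 3, an alternative chosen after seeing the data, gave 1638 moved, 1011 shared and 264 particular genes. The labels give no replicate numbers that could pair libraries. The clone contrast can be blocked by treatment, since each clone has an untreated and a GSK126 library: with treatment as covariate it called 1725 genes in place of 2308, and 11 of 106 single calls examined were lost. Depth was similar in all libraries; in genes with under 10 counts in parental cells the size of a rise is limited by counting.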
